A study of Mus musculus with 6 samples.

Results

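The genes described here are 39 genes of fibroblasts and the extracellular matrix, chosen by symbol from a list and set against 17256 genes in the deposited table of gene expression. All 39 were found in the table, and all 39 passed the filter on low counts and were tested. The RNA came from the epithelium of the antrum, the part of the stomach nearest the duodenum, of C57BL/6 mice. Every animal had been given MNNG, an alkylating carcinogen, and a drug written in the labels as Ranitine for 20 weeks to induce atrophic gastritis. The PEEPA-P5 group (3 libraries) then received by gavage PEEPA-P5, an agent given in the labels by this code alone, for 2 weeks, and the vehicle group (3 libraries) received vehicle for 2 weeks. No group without induced gastritis was analysed here. The labels do not say how the epithelium was separated from the tissue below it, or whether animals were pooled or each library is 1 mouse. The p-values therefore rest on the spread among libraries, and that spread may be partly or wholly technical.

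Fibroblasts are the connective-tissue cells of the lamina propria, the layer under the gastric epithelium. They secrete collagens, which assemble as triple helices and are crosslinked by lysyl oxidases. Small proteoglycans, microfibrils and elastic fibres are laid down with them, and the basement membrane between epithelium and stroma is built on type IV collagen. Matrix metalloproteinases degrade this matrix and TIMP proteins inhibit them. Several of the genes are also expressed by endothelium, smooth muscle and pericytes, so the list marks stroma in a wide sense.

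Transcripts of all 39 genes were less abundant in PEEPA-P5 3 than in either other PEEPA-P5 library, at a median of 0.112 times their mean. Across all 3 libraries of each group, 38 of the 39 genes had a lower fitted level with PEEPA-P5 than with vehicle (against 50.6% of all tested genes), with a median log2 difference of -0.83, but no gene passed the adjusted threshold. Without PEEPA-P5 3 the median was -0.33 and 30 of the 39 were lower (against 51.5%). In 6 genes every PEEPA-P5 library lay below every vehicle library both in counts scaled to library size (CPM) and in the deposited TPM: the metalloproteinase inhibitors Timp2 and Timp3, the chemokine gene Ccl11, the elastic-fibre genes Fbln2 and Eln, and the collagen gene Col15a1. In CPM alone this also held for Dcn, Fbln5 and Mfap5. The 9 genes separate in CPM stood against 10.7% of all tested genes, and the 6 in TPM against 12.8%.

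Upstream sequences are shown for 3 of the genes. Postn and Col3a1 are among the 39 genes with the highest mean TPM and stood in PEEPA-P5 3 at 0.102 and 0.101 times the mean of the other PEEPA-P5 libraries, whereas Fbln1, at 0.521 times, differed least there. RefSeq windows on build GRCm38.p6 were found for 23 of the 39 genes. Each window below is the 250 bases before an annotated start, 5′ to 3′, and lies outside annotated exons; capitals mark the letters TATAAA, searched on both strands together with CCAAT and GGGCGG.
Postn, the downstream of its 2 listed starts, chr3:54360857-54361106, plus strand: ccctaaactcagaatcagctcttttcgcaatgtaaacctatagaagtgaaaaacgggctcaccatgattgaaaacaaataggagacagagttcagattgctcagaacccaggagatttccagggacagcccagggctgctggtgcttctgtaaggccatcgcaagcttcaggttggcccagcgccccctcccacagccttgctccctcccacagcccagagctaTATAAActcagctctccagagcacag
Col3a1, chr1:45311288-45311537, plus strand: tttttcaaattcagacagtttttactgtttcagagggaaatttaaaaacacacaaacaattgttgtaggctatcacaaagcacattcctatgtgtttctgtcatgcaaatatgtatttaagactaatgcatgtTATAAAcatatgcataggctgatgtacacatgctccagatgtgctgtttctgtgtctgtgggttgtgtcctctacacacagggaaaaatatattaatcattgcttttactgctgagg
Fbln1, the upstream of its 2 listed starts, chr15:85205699-85205948, plus strand: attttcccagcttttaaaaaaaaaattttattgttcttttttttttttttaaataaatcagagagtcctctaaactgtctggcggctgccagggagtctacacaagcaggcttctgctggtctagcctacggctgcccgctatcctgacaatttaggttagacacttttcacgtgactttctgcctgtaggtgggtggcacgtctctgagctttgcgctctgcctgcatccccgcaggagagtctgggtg
The Postn window holds TATAAA with its first base 26 bases before the start, and the Col3a1 window holds it 117 bases before the start. Where a gene had several windows outside exons, the one with the most TATAAA was shown, and the other Postn window holds none of the 3 motifs. The window of Pdgfra, at 0.0917 times in PEEPA-P5 3, also holds none and is not shown. The Fbln1 window shown holds none of the 3 motifs, but that of its other start, which overlaps an exon, holds GGGCGG. Over the 28 windows of the 23 genes, TATAAA was present in 3 (10.7%), CCAAT in 8 (28.6%) and GGGCGG in 13 (46.4%). Over 32851 windows of all genes the shares were 12.4%, 33.8% and 32.7%. A match is a stretch of letters and not a measured binding site.

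The libraries were of similar depth, from 16388852 to 16903559 expected counts each. Values below are in CPM, counts relative to a library size scaled by the TMM method, or in TPM, the deposited unit that also divides by transcript length and is used for levels of different genes. Fibroblast-defining transcripts were found in every library, although Lum had only 3 counts in PEEPA-P5 3. The epithelial marker Epcam, named as a check of the tissue, was at 264, 281 and 282 CPM in PEEPA-P5 1, 2 and 3 and 249, 230 and 184 CPM in vehicle 1, 2 and 3. The 39 genes together took 0.0687%, 0.104% and 0.0109% of the counts of PEEPA-P5 1, 2 and 3 (95% Wilson intervals 0.0675% to 0.07%, 0.102% to 0.105% and 0.0104% to 0.0114%). In vehicle 1, 2 and 3 they took 0.112%, 0.134% and 0.0615% (0.11% to 0.113%, 0.132% to 0.136% and 0.0603% to 0.0627%). The intervals cover counting error only. PEEPA-P5 3 lies far below the other 5 libraries, and PEEPA-P5 1 and vehicle 3 lie close together. In bulk RNA, fewer fibroblasts in the material sequenced and less RNA per fibroblast cannot be told apart. How much of the tissue below the epithelium entered each library is not known from the labels.

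PEEPA-P5 3 was the lowest of the 6 libraries for 37 of the 39 genes (94.9%), against 31.4% of all 13071 tested genes. The exceptions, Col14a1 and Lox, were lowest in vehicle 3. In 31 of the 39 genes (79.5%) the CPM in PEEPA-P5 3 was under 0.2 times the mean of PEEPA-P5 1 and 2, against 5.79% of all tested genes. The median of this fold was 0.112 over the 39 genes, with quartiles of 0.0967 and 0.167, and 0.996 over all tested genes. The deepest was that of Eln, at 0.0201 and resting on 1 count, and the shallowest that of Fbln1, at 0.521. Besides Fbln1, the genes at or above 0.2 were Timp2, Ccl11, Col14a1, Col18a1, Lox, Thy1 and Mfap5. In PEEPA-P5 3 the 39 genes had from 1 to 303 counts, and 11 of them had under 10.

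Vehicle libraries also differed from each other. Vehicle 2 was the highest library for 24 genes. Vehicle 3 stood at a median of 0.573 times the mean of vehicle 1 and 2 over the 39 genes, against 1.01 over all tested genes. There the fibrillar collagens and Pdgfra were at 0.332 to 0.429 times, whereas 7 genes were over 0.9 times, namely Col15a1, Fbln2, Mfap4, Sparcl1, Timp2, Thy1 and Ccl11.

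**Figure D1:**
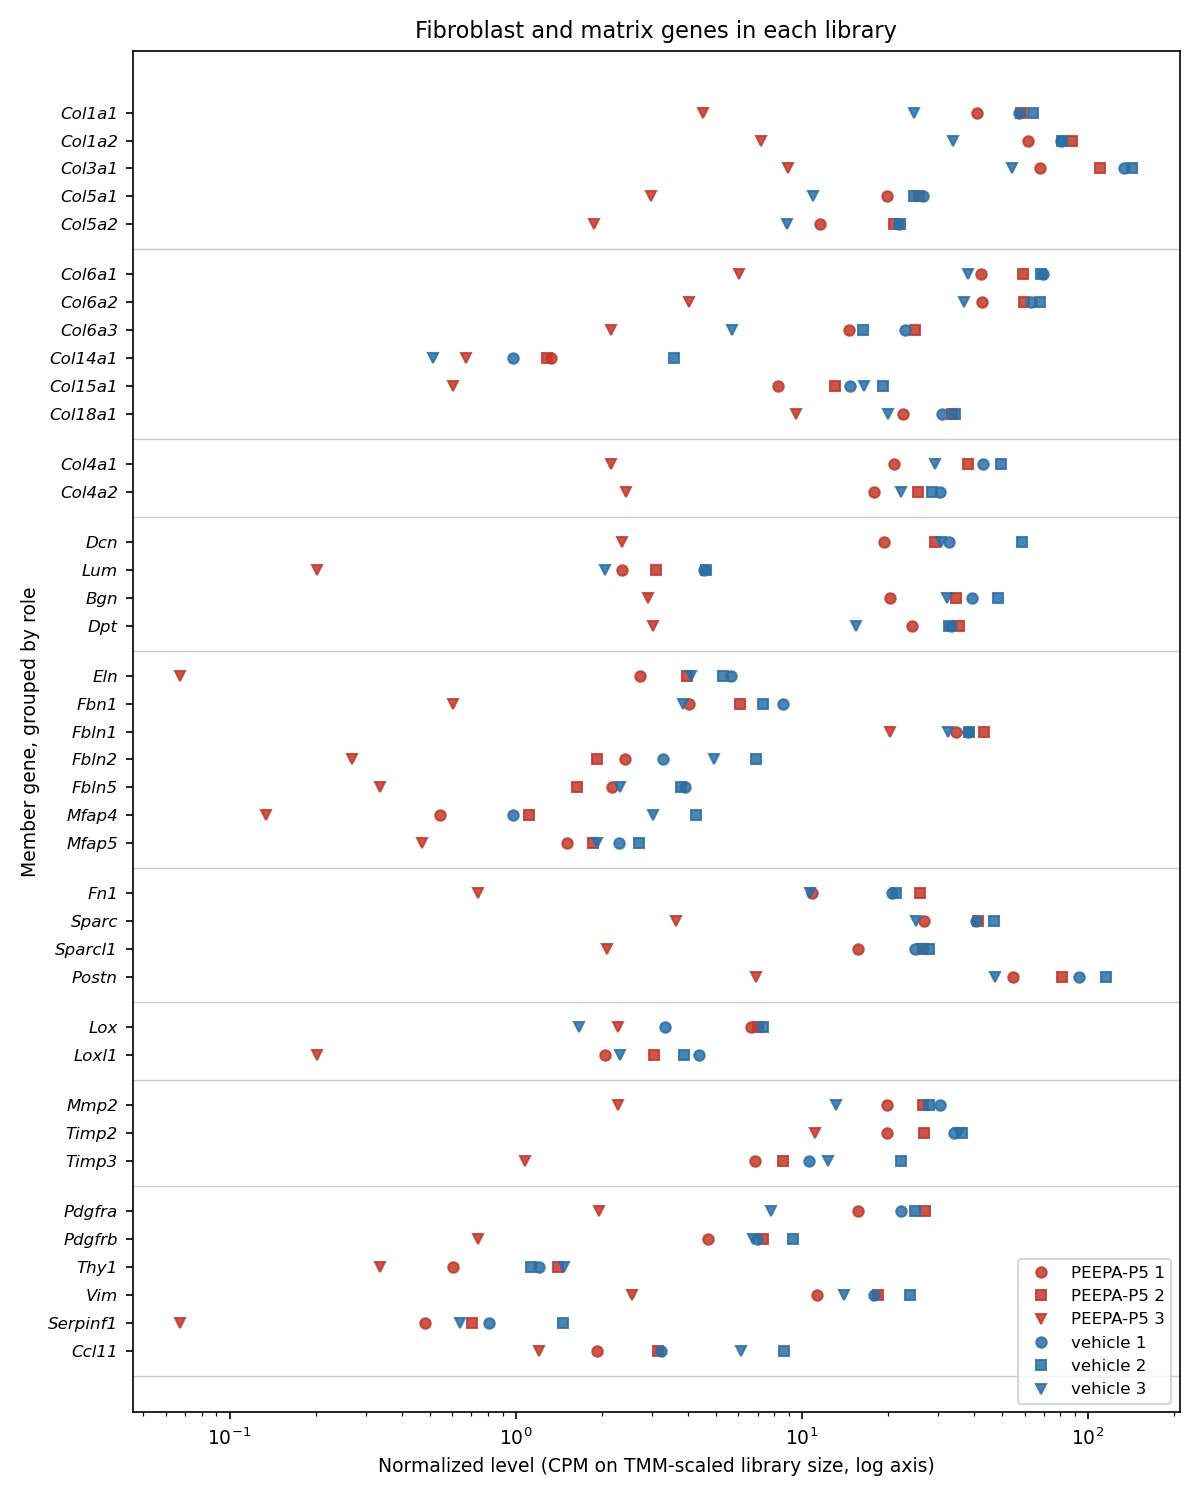
CPM of each of the 39 genes (log axis) in the 3 PEEPA-P5 libraries (red) and the 3 vehicle libraries (blue), with genes grouped by role and 1 symbol per library. The red triangle of PEEPA-P5 3 is the leftmost point for 37 genes, and the other 5 libraries overlap in most rows.

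With edgeR's quasi-likelihood test, adjusted by the Benjamini-Hochberg method over all 13071 tested genes, 0 of the 39 genes passed 0.05 in either direction, as did 0% of all genes. The smallest adjusted p among the 39 was 0.412, which is also the smallest of any gene. DESeq2 called 0 of the 39 but 101 of all 13071 genes (0.773%), and limma-voom called 0 of the 39 and 0 of all genes. At an unadjusted p under 0.05, 5 of the 39 were lower with DESeq2 (against 6.59% of all genes) and 6 with limma-voom (against 5.91%). With edgeR 4 of the 39 were lower with PEEPA-P5 at an unadjusted p under 0.05 (10.3%, against 6.14% of all tested genes) and 0 were higher (against 5.92%). The fitted difference was below 0 in 38 (97.4%, against 50.6%), and the median of -0.83 stood beside -0.005 over all tested genes. The genes vary together across libraries, so neither share is a count of independent events.

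The size of the difference depended on single libraries. Without PEEPA-P5 3, 30 of the 39 were lower (76.9%, against 51.5% of all genes), 6 at an unadjusted p under 0.05 (15.4%, against 4.92%), with a median of -0.33 beside -0.011 over all genes. The 4 genes under 0.05 in the full comparison were among these 6. Without PEEPA-P5 2 the median was -1.41. Leaving out vehicle 2 left 1 gene lower at a p under 0.05 (2.56%, against 2.99% of all genes). Leaving out vehicle 3 left 2 (5.13%, against 2.67%), and leaving out PEEPA-P5 1 also left 2 (5.13%, against 3.17%). With neither library numbered 3, 11 were under 0.05 (against 4.48% of all genes) and the median was -0.49. Taking libraries of equal number as pairs, 29 of the 39 were lower with PEEPA-P5 in all 3 pairs (74.4%, against 24.5%). With the number as a block, 9 were lower at an unadjusted p under 0.05 (23.1%, against 7.06%), with a median of -1.14, and again 0 passed the adjusted threshold. The pairing was inferred from these same data and is not stated in the labels, so the counts that use it are descriptive.

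**Figure D2:**
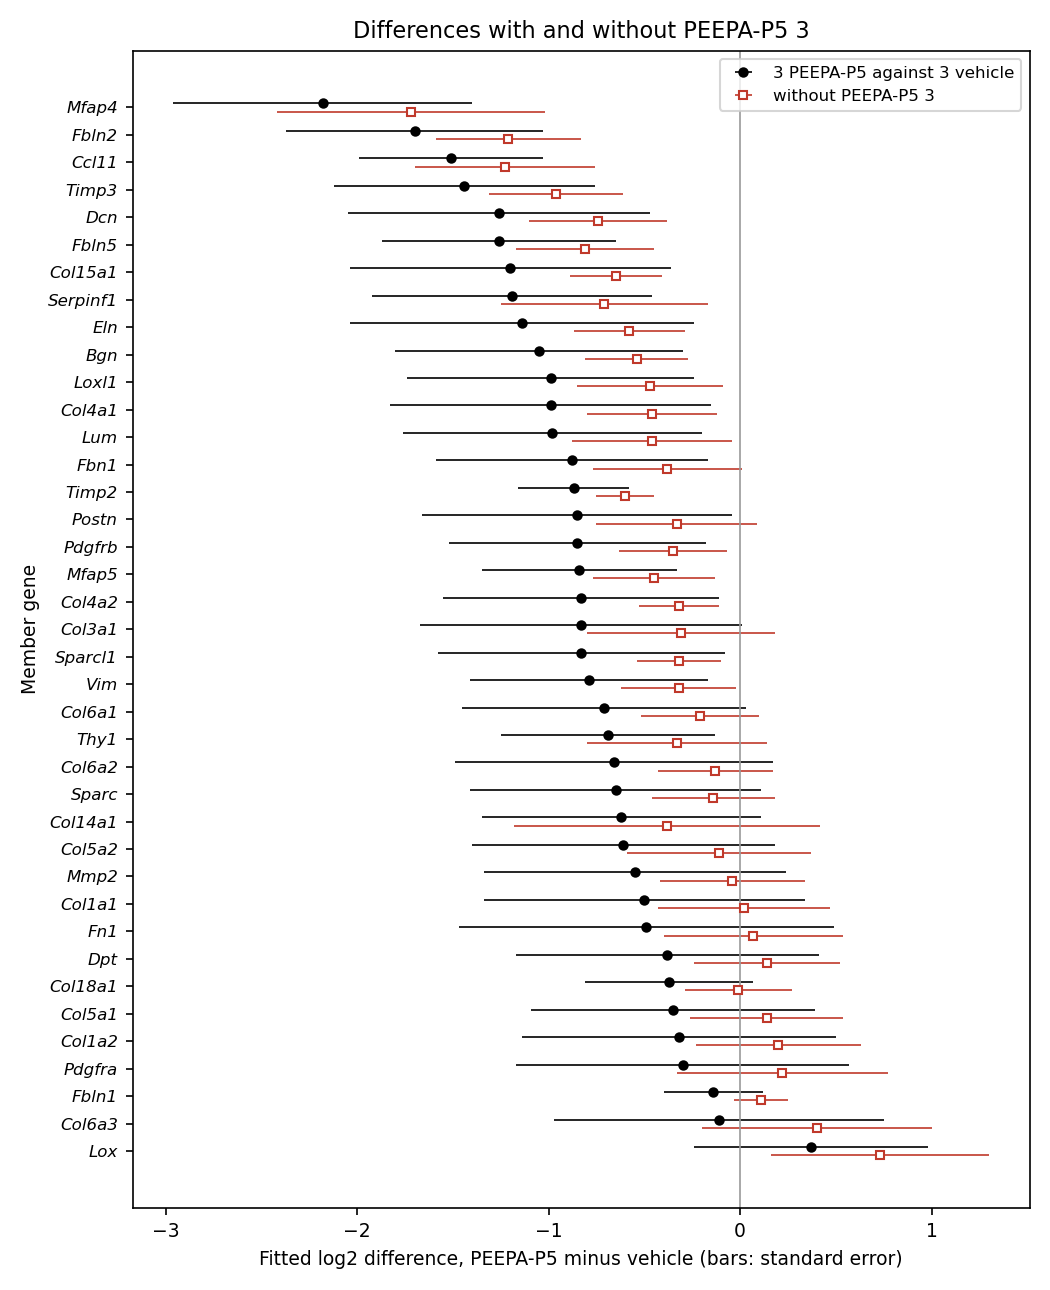
Fitted log2 difference of PEEPA-P5 minus vehicle for each gene with its standard error, over all 6 libraries (black) and without PEEPA-P5 3 (red squares). The median moves from -0.83 to -0.33 when that library is left out, and 8 genes with a lower level over all libraries lie above 0 without it.

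The fibrillar collagens form the fibres of the lamina propria. Col3a1, the chain of type III collagen, had 67.8, 109.7 and 8.94 CPM in PEEPA-P5 1, 2 and 3, against 134, 143 and 54.1 CPM in vehicle 1, 2 and 3. Col1a2, a chain of type I collagen, had 61.6, 87.7 and 7.19 CPM with PEEPA-P5 and 80.7, 80.8 and 33.8 CPM with vehicle. Its partner Col1a1 had 41.0, 58.2 and 4.50 CPM with PEEPA-P5, against 57.5, 64.4 and 24.7 CPM. In all of these PEEPA-P5 3 was lowest, PEEPA-P5 1 and 2 lay above vehicle 3, and the groups overlapped. The log2 differences were -0.83 (SE 0.84), -0.32 (SE 0.82) and -0.50 (SE 0.84) for Col3a1, Col1a2 and Col1a1, each smaller than its standard error. Without PEEPA-P5 3 they were -0.31, 0.20 and 0.02, so that both type I chains then stood slightly higher with PEEPA-P5. Col5a1 and Col5a2, the type V chains of the same fibrils, ran from 1.88 to 25.7 CPM with PEEPA-P5 and from 8.84 to 26.5 CPM with vehicle, at -0.35 and -0.61. The summed TPM of the 5 fibrillar chains was 35.9, 55.6 and 3.96 in PEEPA-P5 1, 2 and 3 and 59.2, 69.1 and 21.99 in vehicle 1, 2 and 3.

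Type VI collagen forms beaded filaments around cells. Col6a1 had 42.4, 59.3 and 6.05 CPM with PEEPA-P5 and 69.8, 68.3 and 38.2 CPM with vehicle, and Col6a2 had 42.7, 59.7 and 4.03 CPM against 63.0, 68.2 and 36.8 CPM. Both had overlapping groups, with log2 differences of -0.71 (SE 0.74) and -0.66 (SE 0.83). Col6a3, at -0.11, was higher in PEEPA-P5 2 than in any vehicle library, and stood at 0.40 without PEEPA-P5 3. Col15a1, which encodes a collagen at the outer face of basement membranes, had 8.25, 13.0 and 0.605 CPM with PEEPA-P5, against 14.7, 19.2 and 16.5 CPM with vehicle. Here every PEEPA-P5 library lay below every vehicle library, although Col15a1 had only 9 counts in PEEPA-P5 3. Its log2 difference was -1.20 (SE 0.84, unadjusted p 0.202, edgeR adjusted p 0.562). Without PEEPA-P5 3 it was -0.65 (SE 0.24, unadjusted p 0.0289). Col18a1, the source of endostatin, ran from 9.55 to 33.5 CPM with PEEPA-P5 and from 19.9 to 34.2 CPM with vehicle. Col14a1, of a fibril-associated collagen, had at most 66 counts in a library, that of vehicle 2, and its difference of -0.62 was 0.55 without vehicle 2.

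Col4a1 and Col4a2 encode the partner chains of the main type IV collagen of basement membranes. Col4a1 had 21.0, 38.1 and 2.15 CPM with PEEPA-P5 and 43.0, 49.8 and 29.1 CPM with vehicle, so that PEEPA-P5 2 lay within the vehicle range. Its log2 difference was -0.99 (SE 0.84) and that of Col4a2 was -0.83 (SE 0.72), and without PEEPA-P5 3 they were -0.46 and -0.32.

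Among the small proteoglycans, Dcn, which encodes the collagen-binding decorin, had 19.4, 29.1 and 2.35 CPM with PEEPA-P5, against 32.8, 58.5 and 30.7 CPM with vehicle. Its groups did not overlap in CPM, but in TPM PEEPA-P5 2, at 18.7, lay above vehicle 3, at 17.8. The log2 difference was -1.26 (SE 0.79, unadjusted p 0.161, edgeR adjusted p 0.526), and -0.74 without PEEPA-P5 3. Lum, for the related lumican, had 2.35, 3.10 and 0.202 CPM with PEEPA-P5 and 4.54, 4.64 and 2.05 CPM with vehicle, with overlap at vehicle 3. Dpt, which encodes the matrix protein dermatopontin, had 24.3, 35.3 and 3.03 CPM with PEEPA-P5, against 33.2, 32.7 and 15.5 CPM. It overlapped fully, at a difference of -0.38, and 0.14 without PEEPA-P5 3. Bgn, for biglycan, had a difference of -1.05 (SE 0.75), with only vehicle 3 below PEEPA-P5 2.

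The genes of elastic fibres and microfibrils held several of the widest differences. Fbln2, which encodes the matrix glycoprotein fibulin-2, had 2.41, 1.93 and 0.269 CPM with PEEPA-P5, against 3.28, 6.91 and 4.93 CPM with vehicle. Mfap4, of a microfibril-associated glycoprotein, had 0.542, 1.11 and 0.134 CPM with PEEPA-P5 and 0.978, 4.26 and 3.01 CPM with vehicle. All PEEPA-P5 libraries lay below all vehicle libraries in Fbln2, whereas in Mfap4 PEEPA-P5 2 lay above vehicle 1. The differences were -1.70 (SE 0.67) for Fbln2 and -2.18 (SE 0.78) for Mfap4, with unadjusted p of 0.0388 and 0.0265 and an edgeR adjusted p of 0.412 for each. Without PEEPA-P5 3 they were -1.21 and -1.72, both still under an unadjusted 0.05. Mfap4 rests on few counts, from 2 to 19 with PEEPA-P5 and from 17 to 79 with vehicle, and Fbln2 had only 4 counts in PEEPA-P5 3.

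Fbln5, for fibulin-5, which helps assemble elastic fibres, had 2.17, 1.64 and 0.336 CPM with PEEPA-P5 and 3.91, 3.78 and 2.31 CPM with vehicle. Eln, for elastin itself, had 2.71, 3.97 and 0.0672 CPM, against 5.64, 5.29 and 4.10 CPM. Mfap5, of another microfibril glycoprotein, had 1.51, 1.87 and 0.471 CPM, against 2.30, 2.70 and 1.92 CPM. None of these overlapped between groups in CPM, but the gaps were narrow, between PEEPA-P5 2 and vehicle 3 in Eln and Mfap5 and between PEEPA-P5 1 and vehicle 3, with 36 counts each, in Fbln5. In TPM Fbln5 overlapped (1.01 in PEEPA-P5 1, against 0.84 in vehicle 3), as did Mfap5 (1.51 in PEEPA-P5 2, against 1.41 in vehicle 3), while Eln did not. The log2 differences were -1.26, -1.14 and -0.84 for Fbln5, Eln and Mfap5 and none had an unadjusted p under 0.05. In PEEPA-P5 3 these genes had 5, 1 and 7 counts. Fbn1, for fibrillin-1, had a difference of -0.88 (SE 0.71). Of its 31-base stretches, 19.9% also occur in other genes on either strand, mainly in Gm9913, which overlaps it on the other strand. Fbln1, for fibulin-1, behaved differently from its relatives, with 34.7, 43.4 and 20.4 CPM with PEEPA-P5 and 38.2, 38.3 and 32.5 CPM with vehicle. Over all 6 libraries it spanned far less than any fibrillar collagen, and its difference was -0.14 (SE 0.26). In PEEPA-P5 3 it had the highest TPM of the 39 genes, at 7.87, whereas Postn led in the other PEEPA-P5 libraries and in vehicle 1 and 2, and Dcn in vehicle 3.

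Among adhesive and matricellular proteins, Postn, for periostin, had the highest mean TPM of the 39 genes, at 16.4 ± 13.3 TPM with PEEPA-P5 and 31.2 ± 15.5 TPM with vehicle (SD, n = 3 each). In CPM it stood at 54.6, 80.9 and 6.92 with PEEPA-P5 and at 93.1, 116 and 47.1 with vehicle. Sparc, for the collagen-binding protein osteonectin, had 26.7, 41.2 and 3.63 CPM, against 40.5, 46.9 and 25.04 CPM. Both overlapped between groups, and their differences of -0.85 (SE 0.81) and -0.65 (SE 0.76) were within about 1 standard error. Fn1, for fibronectin, was highest of all in PEEPA-P5 2, at 25.8 CPM, and had 0.739 CPM in PEEPA-P5 3, with a difference of -0.49 (SE 0.98). Sparcl1, which is also an endothelial and smooth-muscle product, was nearly level across the vehicle libraries, from 24.9 to 27.7 CPM, and ran from 2.08 to 26.5 CPM with PEEPA-P5.

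Lysyl oxidases crosslink collagen and elastin. Lox was the only gene of the 39 with a higher fitted level, at 6.63, 7.01 and 2.29 CPM with PEEPA-P5 and 3.34, 7.28 and 1.67 CPM with vehicle. Its groups overlapped, with vehicle 2 the highest library, and the difference of 0.37 (SE 0.61, unadjusted p 0.564) did not exceed its error. Loxl1, the relative that acts on elastic fibres, stood at -0.99 (SE 0.75).

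Among the 39 genes, the inhibitor genes Timp2 and Timp3 separated more clearly than the proteinase gene Mmp2. Timp2, which inhibits metalloproteinases and takes part in activating MMP2, had 19.8, 26.7 and 11.1 CPM with PEEPA-P5, against 33.9, 36.4 and 35.4 CPM with vehicle. The vehicle libraries lay within a narrow band above all PEEPA-P5 libraries. The means were 19.2 ± 7.81 and 35.2 ± 1.26 CPM (SD, n = 3 each), at a log2 difference of -0.87 (SE 0.29, unadjusted p 0.0184, edgeR adjusted p 0.412). Without PEEPA-P5 3 it was -0.60 (SE 0.15, unadjusted p 0.00629), the smallest unadjusted p of the 39 there. Timp3, whose protein binds to the matrix, had 6.87, 8.58 and 1.08 CPM with PEEPA-P5 and 10.6, 22.2 and 12.3 CPM with vehicle, again without overlap. Its difference was -1.44 (SE 0.68, unadjusted p 0.075), and -0.96 (unadjusted p 0.034) without PEEPA-P5 3. Timp3 lies inside the gene Syn3 on the other strand. Of the 31-base stretches of Timp3, 21.9% also occur in other genes on either strand, mainly in Syn3, which itself had from 12 to 54 counts in a library. Mmp2, the gelatinase that acts on denatured and type IV collagen, had 19.8, 26.5 and 2.29 CPM with PEEPA-P5, against 30.4, 27.8 and 13.1 CPM. It overlapped between groups, at -0.55 (SE 0.79), and at -0.04 without PEEPA-P5 3.

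Of the receptors and other markers, Pdgfra, the PDGF receptor that marks fibroblasts, had 15.7, 26.9 and 1.95 CPM with PEEPA-P5 and 22.1, 24.9 and 7.81 CPM with vehicle. It was highest in PEEPA-P5 2, at a difference of -0.30 (SE 0.87), and 0.22 without PEEPA-P5 3. Vim, the intermediate filament of mesenchymal cells, had 11.3, 18.4 and 2.55 CPM, against 17.9, 23.8 and 14.0 CPM, with overlap. Ccl11, for the eosinophil-attracting chemokine eotaxin, had 1.93, 3.15 and 1.21 CPM with PEEPA-P5, against 3.22, 8.63 and 6.15 CPM with vehicle. The groups did not overlap, though PEEPA-P5 2 and vehicle 1 nearly met. Its difference was -1.51 (SE 0.48, unadjusted p 0.0164, edgeR adjusted p 0.412), and -1.23 (unadjusted p 0.037) without PEEPA-P5 3. Pdgfrb, the receptor of pericytes and fibroblasts, stood at -0.85 (SE 0.67). Thy1, a surface glycoprotein, and Serpinf1, for an antiangiogenic serpin, had at most 27 counts in a library and overlapped between groups.

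In all, the groups did not overlap in CPM in 9 of the 39 genes, each of them lower with PEEPA-P5 (23.1%, against 10.7% of all tested genes). In TPM 6 of these 9 did not overlap, with Eln nearly tied, and no other gene of the 39 (15.4%, against 12.8%). Without PEEPA-P5 3 the same 9 genes were separate in CPM, again lower with PEEPA-P5 (23.1%, against 15.5% of all tested genes). In the higher direction 0 of the 39 were separate, against 9.74% of all tested genes.

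**Figure D3:**
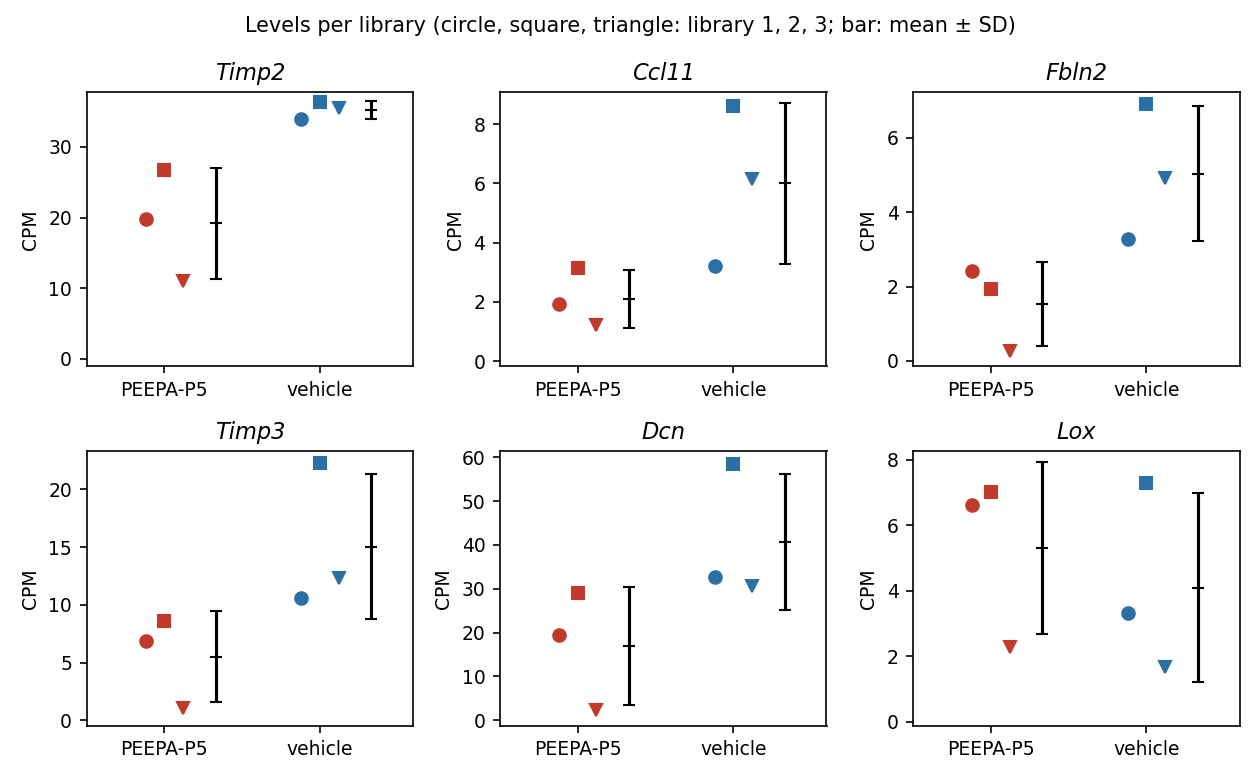
CPM per library of Timp2, Ccl11, Fbln2, Timp3, Dcn and Lox, PEEPA-P5 at the left and vehicle at the right of each panel, with the mean ± SD beside the points. In the first 5 genes all PEEPA-P5 points lie below all vehicle points in this unit, though not in TPM for Dcn, and in Lox they overlap.

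A ratio of TPM between genes of 1 library does not change with that library's scaling. These ratios are described without a test. The ratio of Col1a1 to Col1a2 was 0.581, 0.581 and 0.552 in PEEPA-P5 1, 2 and 3 and 0.624, 0.698 and 0.638 in vehicle 1, 2 and 3, a spread of 1.27-fold, while Col1a1 itself spanned from 4.50 to 64.4 CPM. The ratio of Col3a1 to Col1a1 was 1.77, 2.01 and 2.10 with PEEPA-P5, against 2.49, 2.37 and 2.34 with vehicle. Both ratios were lower in every PEEPA-P5 library than in every vehicle library, PEEPA-P5 3 included, although that library rests on 67, 107 and 133 counts of Col1a1, Col1a2 and Col3a1. Col6a3 to Col6a1 was 0.155, 0.184 and 0.150 with PEEPA-P5 and 0.145, 0.106 and 0.0672 with vehicle, again separate but with little room between PEEPA-P5 3 and vehicle 1. The ratios of Col4a1 to Col4a2, Col5a1 to Col5a2 and Col6a1 to Col6a2 overlapped between groups, with spreads of 1.99-fold, 1.53-fold and 1.54-fold over the 6 libraries.

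Further ratios were chosen after their values were seen, and not all of them separated the groups. Those of Sparcl1 to Col1a1, Fbln1 to Col1a1 and Ccl11 to Pdgfra overlapped, whereas Dcn to Pdgfra was lower in every PEEPA-P5 library. Dcn to Col1a1 was 1.71, 1.81 and 1.86 with PEEPA-P5, against 2.07, 3.26 and 4.49 with vehicle. Col15a1 to Col1a1 was 0.240, 0.269 and 0.159 with PEEPA-P5 and 0.302, 0.347 and 0.801 with vehicle. Lox to Col1a1 ran the other way, at 0.215, 0.157 and 0.681, against 0.0739, 0.148 and 0.0907, with PEEPA-P5 2 and vehicle 2 close. Timp2 to Col1a1 was 0.813, 0.773 and 4.12 with PEEPA-P5 and 0.994, 0.952 and 2.42 with vehicle, so that the low-collagen library of each group had a high ratio and the groups overlapped. In CPM, with ratios to Col1a1 compared only between libraries, 10 of the other 38 genes had a lower ratio in every PEEPA-P5 library than in every vehicle library (26.3%, against 0.872% of all tested genes). Of the other 38, 2 had a higher one, Col1a2 and Lox, and either direction occurred in 2.3% of all tested genes. Ratios to Col1a1 spread widely for genes that do not vary with it, so these shares are not like for like.

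**Figure D4:**
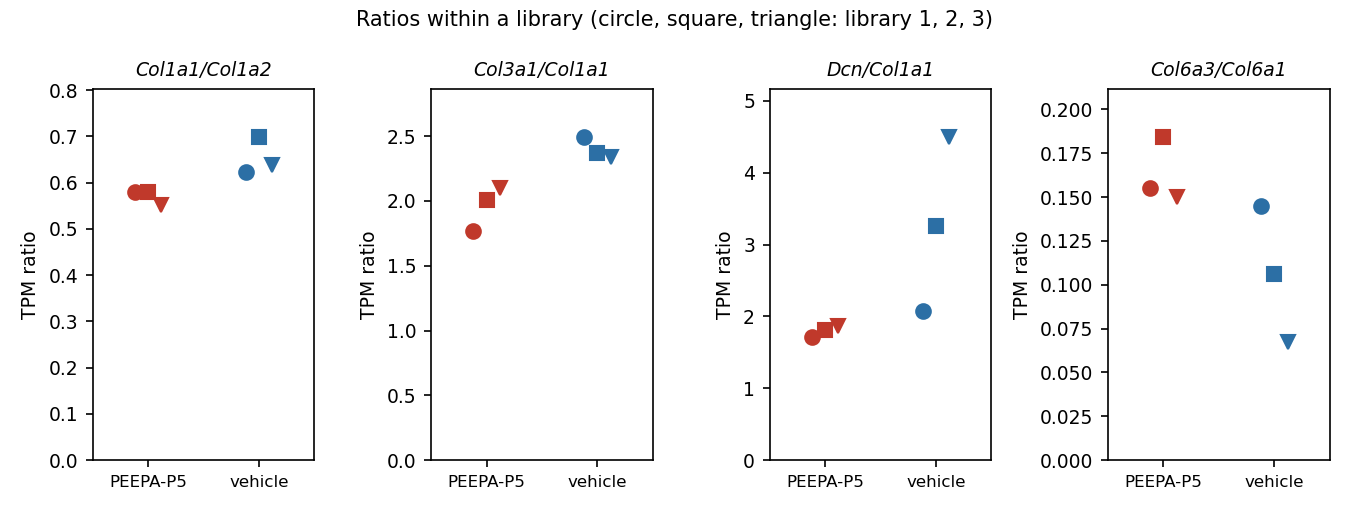
TPM ratios within each library for Col1a1 to Col1a2, Col3a1 to Col1a1, Dcn to Col1a1 and Col6a3 to Col6a1, PEEPA-P5 (red) left of vehicle (blue). The first 3 ratios are lower and the last is higher in all PEEPA-P5 libraries, PEEPA-P5 3 (triangle) included.

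Other stromal markers moved with the 39 genes. The mean log2(CPM + 0.1) of the 39, relative to its mean over the 6 libraries, was 0.05, 0.58 and -2.42 in PEEPA-P5 1, 2 and 3 and 0.68, 0.99 and 0.12 in vehicle 1, 2 and 3. Endothelial markers stood at -0.11, 0.41 and -2.22 with PEEPA-P5 and 0.38, 0.89 and 0.66 with vehicle. All 15 tested were lower with PEEPA-P5, at a median of -0.90, and Cldn5 was below 1 CPM in every library. Smooth muscle and pericyte markers stood at -0.43, 0.70 and -2.07 with PEEPA-P5 and 0.60, 0.98 and 0.23 with vehicle, and 17 of 17 were lower at a median of -0.83. Macrophage and myeloid markers stood at -0.09, 0.77 and -1.66 with PEEPA-P5 and 0.52, 0.63 and -0.17 with vehicle, with 11 of 13 lower at a median of -0.51. Epithelial markers ran the other way, at 0.04, 0.03 and 0.37 with PEEPA-P5 and -0.06, -0.12 and -0.26 with vehicle, and 10 of 11 were higher at a median of 0.28. Surface mucous cell markers were likewise higher in 7 of 8, at 0.32. Markers of antral gland, parietal and chief cells stood at -0.81, 0.43 and -3.52 with PEEPA-P5 and 0.69, 1.76 and 1.46 with vehicle. Of these, 9 of 10 were lower at a median of -1.92, with PEEPA-P5 3 the lowest library for all 10 (against 31.4% of all tested genes). Within that list vehicle 3 did not stand in 1 place: Gast, for the antral hormone gastrin, had 1460, 1004 and 48.0 CPM with PEEPA-P5 and 1859, 1219 and 134.8 CPM with vehicle, so that vehicle 3 was the lowest vehicle library. Muc6, a gland mucin, had 690, 885 and 463 CPM with PEEPA-P5 and 829, 1988 and 2872 CPM with vehicle, where vehicle 3 was the highest. Without PEEPA-P5 3, 13 of 15 endothelial markers were lower at a median of -0.50, and 14 of 17 smooth muscle and pericyte markers at -0.33. Of the macrophage and myeloid markers, 7 of 13 were then lower, at -0.03. The epithelial median was then 0.20, and that of antral gland, parietal and chief cell markers was -1.53. No member of these lists passed the adjusted threshold. The part of these cell types in the results for the 39 genes was not tested.

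The summed level of the endothelial list ran from 22.99 to 129 CPM with PEEPA-P5 and from 128 to 185 CPM with vehicle. That of the smooth muscle and pericyte list ran from 75.6 to 412 CPM with PEEPA-P5 and from 268 to 489 CPM with vehicle. The mesothelial markers Msln and Lrrn4 had at most 2 counts and 1 count in a library, and the adipocyte marker Adipoq at most 1. Few genes of the remaining cell type lists could be tested, with 3 of 5 adipocyte, 1 of 2 mesothelial, 2 of 3 glial and neuronal and 1 of 1 lymphocyte markers lower. Of the adipocyte list, Lpl and Plin4, for lipoprotein lipase and a lipid-droplet protein, were at -2.82 and -2.10 (unadjusted p 0.022 and 0.0308). Pparg and Cidec, which had the highest CPM of that list, went the other way, at 0.41 and 0.35 (edgeR unadjusted p 0.0417 and 0.293). Within libraries, the mean of the 39 minus that of the endothelial list was 0.16, 0.17 and -0.20 with PEEPA-P5 and 0.30, 0.10 and -0.54 with vehicle. In PEEPA-P5 3 and vehicle 3 the fibroblast and matrix genes were thus the lower of both lists relative to their own means. Against macrophage markers the same difference was 0.14, -0.19 and -0.76 with PEEPA-P5 and 0.16, 0.36 and 0.29 with vehicle.

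**Figure D5:**
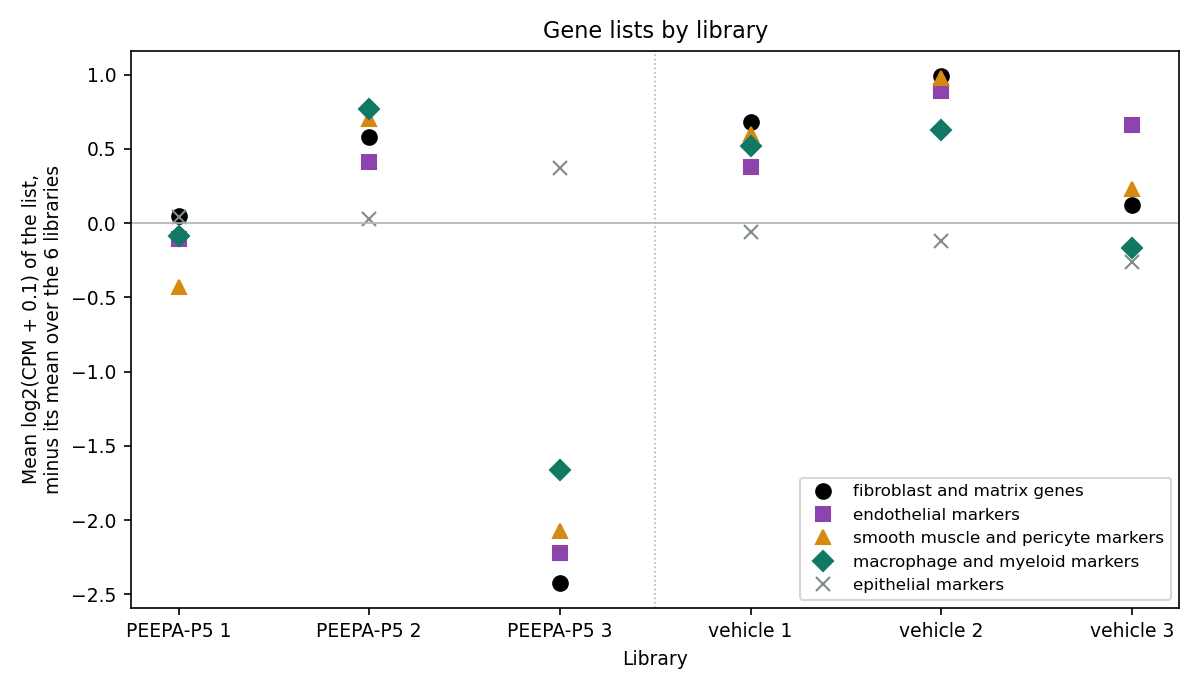
Mean log2(CPM + 0.1) of 5 gene lists in each library, minus the list's mean over the 6 libraries, PEEPA-P5 left of the dotted line and vehicle right of it. The 4 stromal lists drop together in PEEPA-P5 3, to between -1.66 and -2.42, where epithelial markers are at 0.37. Markers of antral gland, parietal and chief cells, which are not plotted, are at -3.52 there.

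Genes that act on the same matrix were taken from lists with no member among the 39. None passed the adjusted threshold, as with the 39. Without PEEPA-P5 3 the medians of these lists ran only from -0.33, for adventitial and progenitor fibroblasts, to 0.04, for other matrix proteases and inhibitors. Enzymes that fold and modify collagen, many of which every secretory cell uses, showed a small difference, with 12 of 15 lower at a median of -0.14. At an unadjusted p under 0.05, 1 was lower (against 6.14% of all tested genes). P4hb, a subunit of prolyl hydroxylase and a general disulfide isomerase, had 1527, 1540 and 1817 CPM with PEEPA-P5 and 1545, 1236 and 1261 CPM with vehicle, and thus was not low in PEEPA-P5 3. Plod2, a collagen lysyl hydroxylase, was at 1.21, 1.29 and 0.538 CPM, against 1.67, 2.10 and 2.56 CPM (difference -1.05, unadjusted p 0.0473). Enzymes that process procollagen and crosslink fibrils had 5 of 7 lower at a median of -0.67. Loxl2, a further lysyl oxidase, followed the collagens with 8.07, 10.9 and 0.739 CPM, against 11.96, 14.8 and 4.80 CPM.

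Other matrix proteases and inhibitors had 10 of 11 lower at a median of -0.30, with Mmp14, the membrane metalloproteinase that activates MMP2, at -0.22, and at 0.07 without PEEPA-P5 3. In that setting 5 of 12 genes of the list were lower, at a median of 0.04. Further matrix glycoproteins had 13 of 15 lower at a median of -0.68, and PEEPA-P5 3 was the lowest library for 15 of 15 (against 31.4% of all tested genes). Spp1, for osteopontin, was at 502, 442 and 79.4 CPM with PEEPA-P5 and 373, 326 and 121 CPM with vehicle. Tnc, for tenascin-C, was at 31.2, 41.6 and 3.03 CPM, against 41.9, 33.99 and 8.97 CPM, and both overlapped between groups. Ltbp4, which binds latent TGF-beta, was at 42.95, 54.4 and 8.54 CPM with PEEPA-P5 and 72.6, 91.1 and 67.96 CPM with vehicle, without overlap (difference -1.13, unadjusted p 0.114).

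Among TGF-beta ligands, receptors and Smads, a pathway that drives matrix production, 11 of 15 were lower at a median of -0.38. At an unadjusted p under 0.05, 3 were lower and 0 higher (against 6.14% and 5.92% of all tested genes). Tgfbr3, the betaglycan co-receptor, was at 5.90, 5.61 and 5.78 CPM with PEEPA-P5, against 8.74, 11.4 and 10.6 CPM with vehicle. Its difference of -0.83 (SE 0.18, unadjusted p 0.00244) was the same without PEEPA-P5 3, which here did not stand apart. Tgfbr1 and Tgfb3, a receptor and a ligand, had differences of -0.38 and -1.45. Smad3 and Smad4, which carry the signal, were at 0.19 and -0.05. Of the PDGF ligands, which act through Pdgfra and Pdgfrb, 2 of 4 were lower. Pdgfd was at 1.81, 2.34 and 2.89 CPM with PEEPA-P5, against 2.93, 6.15 and 8.33 CPM (difference -1.31, unadjusted p 0.0175), narrowly separate and not lowest in PEEPA-P5 3.

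Basement membrane genes other than the type IV chains above had 14 of 17 lower at a median of -0.53. Lamb3, an epithelial laminin chain, was not among the lower ones, at 0.30. Col4a3, a minor type IV chain, was at 0.482, 0.701 and 0.202 CPM, against 0.978, 3.72 and 6.85 CPM (difference -3.02, unadjusted p 0.00618). Of the integrins and collagen receptors, 7 of 14 were lower and 7 higher, at a median of 0.04. Signals of subepithelial fibroblasts had 15 of 15 lower at a median of -0.60 and 0 at an unadjusted p under 0.05 (against 6.14% of all tested genes). Ptch1, a Hedgehog receptor and target, was at 17.5, 24.3 and 7.73 CPM, against 24.96, 26.3 and 19.1 CPM. Markers of adventitial and progenitor fibroblasts had 7 of 10 lower at a median of -0.83, with Cygb, for cytoglobin, at -1.55 and C3, for a complement protein, at -2.12 (unadjusted p 0.0216 and 0.00889). Gsn, a widely expressed gene of that list, was at 0.22, and Dpp4, next to it in CPM, was at 0.66. Of the genes of activated fibroblasts 5 could be tested and 4 were lower, at a median of -0.09. Cxcl12, the chemokine of stromal niches, was at 3.01, 5.14 and 0.672 CPM with PEEPA-P5, against 7.71, 13.3 and 28.2 CPM (difference -2.46, unadjusted p 0.0157). Il33, with the highest CPM of that list, went the other way. It was at 21.7, 44.6 and 74.5 CPM with PEEPA-P5, against 27.0, 55.1 and 30.5 CPM (difference 0.32).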

How the data were processed

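The deposited table gives, per the file headers, an expected count, a TPM value and an FPKM value per gene and library. Bowtie2 2.2.5, RSEM 1.2.12 and build mm9 are named in the submitters' processing notes, while strand and settings are not given there. Of the deposited expected counts 9.82% were not whole (tolerance 1e-06), and they were rounded. The deposited TPM was used as given, and the deposited FPKM was not used further. Libraries of each pair differed beyond sampling noise (chi-square per degree of freedom at least 13.3). Counts were tested with edgeR 4.0.16 (robust quasi-likelihood, TMM, its expression filter, 13071 genes) in R 4.3.3, without covariates, with Benjamini-Hochberg adjustment at 0.05. Standard errors are the fitted difference divided by the root of the F statistic. The script was tested on simulated data. Alternatives used DESeq2 1.42.0, limma 3.58.1, other scalings and filters, log2(TPM + 1) and log2(TPM + 0.1), a replicate block, and left-out libraries. Equal library numbers of both groups correlated at 0.237, 0.346 and 0.235 in their deviations from group means, so the numbers were taken as pairs. Unequal numbers ran from -0.349 to 0.176, the highest being PEEPA-P5 1 with vehicle 2. Deviations from a group mean depend on each other, so these correlations are not independent. The labels do not state a pairing. Transcript overlap was counted as shared 31-base stretches in GENCODE M21. The genes, lists and naming rule were chosen with earlier results of these data known. The rule names the 2 genes of each role with the highest mean TPM (1 where a role has 2 genes), those at an unadjusted p under 0.05 or with separate groups, and the defining fibroblast markers. From the other lists it allows the 3 genes with the highest CPM, up to 3 with the smallest p under 0.05, and defining cell type markers below 1 CPM; Epcam was named outside it, after its values were seen.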

Additional observations from a re-analysis of the deposited data

How the results depend on the processing

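Over 16 alternatives, 611 of 623 fitted differences of single genes had the same direction as in the full comparison, and 0 passed the adjusted threshold; the smallest adjusted p was 0.136, for Timp2 with DESeq2. The 12 that turned were Col6a3 (0.33) without vehicle 1, Col14a1 (0.55) without vehicle 2, Fbln1 (0.04) and Col6a3 (0.01) without both libraries numbered 3, and, without PEEPA-P5 3, Col1a1 (0.02), Col1a2 (0.20), Col5a1 (0.14), Col6a3 (0.40), Dpt (0.14), Fbln1 (0.11), Fn1 (0.07) and Pdgfra (0.22). With each library left out, the lowest values of these genes were -1.10 for Col1a1, -0.92 for Col1a2, -0.85 for Col5a1, -0.83 for Col6a3, -0.98 for Dpt, -0.40 for Fbln1, -1.59 for Fn1 and -1.05 for Pdgfra, all without PEEPA-P5 2, and -1.05 for Col14a1 without vehicle 3. The cause was not tested. The number of the 39 lower at an unadjusted p under 0.05 was 4, and with each library left out it ran from 1 to 6. It was 9 with the replicate block, 7 on log2(TPM + 1) and 11 without both libraries numbered 3. Their median log2 difference ran from -1.41 to -0.33 with each library left out, and was -0.49 without both libraries numbered 3, -1.27 with limma-voom and -0.83 with DESeq2. The number of genes with separate groups was 9 in CPM and 6 in the deposited TPM, an alternative chosen after seeing the data. The number with a lower fitted level ran from 30 to 38. Over the whole table DESeq2 called 101 genes, and with each library left out edgeR called 0 or 1, the 1 without vehicle 1. On log2(TPM + 0.1) the median of all genes was -0.10 and that of the 39 was -1.23. Genes with under 10 counts in PEEPA-P5 3, 11 of the 39, are limited by depth there.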
